A study of Mus musculus with 6 samples.

Results

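The HOX genes were taken as every symbol of the deposited expression table made of HOX, a cluster letter from A to D and a number. This gave 39 of the 23284 genes in the table: 11 of the HOXA cluster, 10 of HOXB and 9 each of HOXC and HOXD. They were followed in 6 subcutaneous tumours that athymic nude mice bore from STS26T, an established human cell line of malignant peripheral nerve sheath tumour. The anti-ENG group (n = 3) received TRC105 and M1043, antibodies against human and mouse endoglin (ENG), and the IgG control group (n = 3) received the corresponding IgG. Injections of 10 mg/kg were given intraperitoneally 2 times each week over 3 weeks, beginning 1 week after the cells were implanted. All 6 tumours thus share 1 cell line and a host that lacks mature T cells. The sources used here do not give the age of the mice.

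HOX genes encode transcription factors that bind DNA through a homeodomain. They lie in clusters whose gene order mirrors the order of their expression along the body axis: low paralog numbers, at the 3′ end, are used from the hindbrain and neck backwards, and high numbers in the tail end, the limbs and the urogenital tract. Genes of the same number in different clusters are paralogs. Mesenchymal cells of the adult, such as fibroblasts, keep a HOX pattern that reflects where in the body they arose, and the pattern is often kept in cell lines. The HOX proteins gain specificity by binding DNA together with cofactors of the PBX, MEIS and PKNOX families.

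Polyadenylated RNA was sequenced. Levels are FPKM, fragments scaled for the length of the transcript and the size of the library, so they can be compared between genes. Reads were assigned to the human genome, so RNA of mouse host cells enters a value only where its reads align there, and how far it does so for HOX genes was not tested. Fewer cells of a type and less RNA per cell cannot be told apart in such tumours. Total FPKM per tumour ran from 410786 to 475146. Depth relative to IgG control 1 was read from the worth of a single fragment. It was 1.46, 1.23 and 1.14 in anti-ENG 1, 2 and 3, and 1.18 and 1.10 in IgG control 2 and 3. The worth of a fragment reflects how each tumour was scaled, so this relative depth may differ from that of the sequencing. Because that worth is fixed for a gene and a tumour, the values of 31 HOX genes resolved into whole fragments in all 6 tumours, departing from a whole number by at most 0.00119. The smallest such numbers are given below as fragments. For genes with very few, the true numbers may be a common multiple of those printed. The values of 7 other HOX genes did not resolve, and 1 gene was at 0. Of 9 Schwann lineage markers fixed for a check of the label, 6 were below 1 FPKM in every tumour, among them SOX10 (0.0283 to 0.188 FPKM), S100B (0 to 0.104 FPKM) and CDH19 (0). GAP43 averaged 1.57 FPKM and NGFR 0.952 FPKM. The defining Schwann markers of the labelled tumour type were thus near 0. ENG itself had 15.5, 29.5 and 26.7 FPKM in anti-ENG 1, 2 and 3, against 41.0, 23.9 and 22.1 FPKM in IgG control 1, 2 and 3. The exact two-sided permutation p for ENG was 0.6, where 0.1 is the smallest that 3 against 3 can give.

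The tumours expressed a broad set of HOX genes from all 4 clusters at low to moderate levels. A mean of at least 1 FPKM over the 6 tumours was reached by 26 of the 39 genes: 8 of 11 in HOXA, 7 of 10 in HOXB, 6 of 9 in HOXC and 5 of 9 in HOXD. Over the whole table it was reached by 12586 of the 23284 genes. Another 8 averaged from 0.1 to under 1 FPKM, 4 averaged under 0.1 FPKM, and HOXD12 was listed at 0 in every tumour. HOXB4 lay just under the 1 FPKM line at 0.998 FPKM and HOXC8 just over it at 1.02 FPKM. Levels did not change steadily along any cluster. The plot of levels along the clusters shows stretches of expressed genes broken by genes near 0.

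**Figure D1:**
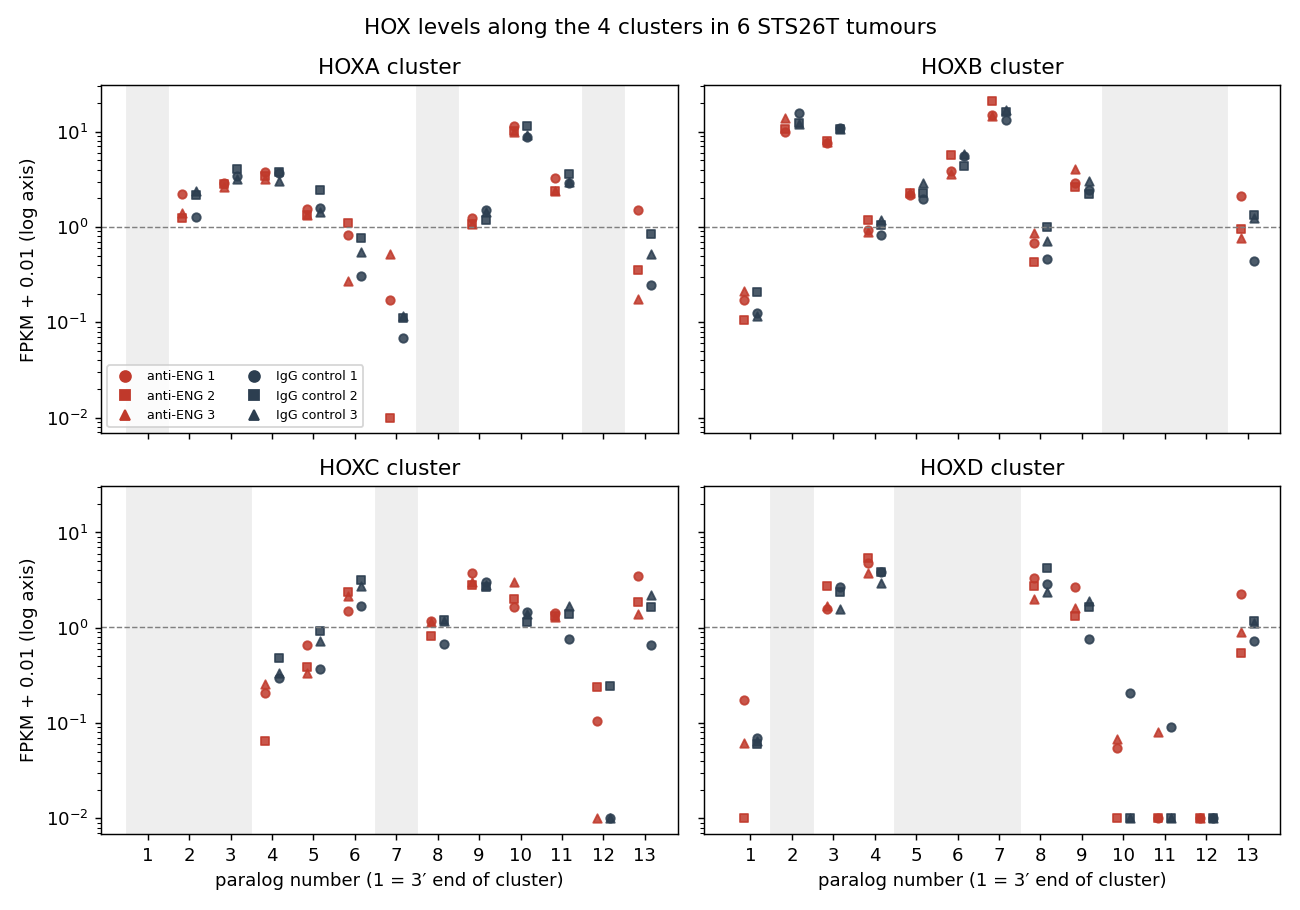
FPKM plus 0.01 (log axis) of HOX genes against their paralog number, with 1 panel per cluster and 1 point per tumour (red, anti-ENG; dark, IgG control). Grey columns mark numbers that the cluster lacks or that are not drawn, and the dashed line marks 1 FPKM. HOXB7, HOXB2, HOXA10 and HOXB3 stand highest, and HOXD10, HOXD11 and HOXD12 lie near 0 between HOXD9 and HOXD13.

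The highest 4 genes were the same in all 6 tumours. HOXB7, a trunk-level HOX gene often studied in cancer cells, averaged 16.2 ± 2.74 FPKM (SD, n = 6), followed by HOXB2 of the hindbrain at 12.4 ± 2.07, HOXA10, which patterns the uterus and limbs, at 10.1 ± 1.10, and HOXB3 at 9.31 ± 1.64 FPKM. The ranges of neighbours in this order overlapped over the tumours. HOXB7 was the highest HOX gene in 5 of the 6 tumours. Below them came a gap, since the lowest HOXB3 value was 7.68 FPKM and the highest value of the next gene, HOXB6, was 5.79 FPKM. Even these leaders were ordinary genes by level: the mean of HOXB7 exceeded that of 60.1% of the 12586 genes tested and that of HOXB3 exceeded 42.1%, while HOXB6 exceeded 24.3%. Across the 39 genes, the order of levels in 1 tumour resembled that in another, with Spearman's rho between 0.899 and 0.969 over the 15 pairs of tumours, which share a cell line. These are correlations across genes, which are not independent replicates.

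In the HOXA cluster the genes of the 3′ end were expressed at even, low levels. HOXA2, which specifies the second branchial arch, averaged 1.78 ± 0.525 FPKM (SD, n = 6), HOXA3 3.15 ± 0.513, HOXA4 3.48 ± 0.300 and HOXA5 1.599 ± 0.417 FPKM. HOXA6 (0.622 FPKM) and HOXA7 (0.157 FPKM) were lower. HOXA6 rested on 8, 9 and 2 fragments in anti-ENG 1, 2 and 3, against 2, 6 and 4 in IgG control 1, 2 and 3. HOXA7 rested on 4, 0 and 10 fragments in the anti-ENG tumours, against 1, 2 and 2 in the IgG tumours, so 1 tumour held 10 of its 19 fragments. Expression resumed at HOXA9, a regulator of blood progenitors, with 1.24 ± 0.179 FPKM, peaked at HOXA10 and stood at 2.90 ± 0.463 FPKM at HOXA11, a gene of the forearm and uterus. HOXA9 and HOXA10 also share a read-through transcript in the table, listed at 8.01e-09 FPKM or less, so how the authors' counting divided shared reads is uncertain for this pair.

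The HOXB cluster held the largest share of HOX RNA. Its 10 genes summed to 45.2, 53.1 and 49.1 FPKM in anti-ENG 1, 2 and 3, against 51.4, 51.8 and 54.5 FPKM in IgG control 1, 2 and 3, which was 43.1 to 52.7% of the HOX total of a tumour. The HOXA sum was 24.9 to 33.0 FPKM, the HOXC sum 8.84 to 13.99 FPKM and the HOXD sum 9.85 to 14.8 FPKM over the 6 tumours. HOXB1, the gene of facial nerve motor neurons at the 3′ end, was near 0, with 2, 1 and 2 fragments in the anti-ENG tumours and 1, 2 and 1 in the IgG tumours. Its neighbours HOXB2 and HOXB3 were among the highest 4 genes. HOXB4, known from blood stem cells, was far below them at 0.998 ± 0.156 FPKM (SD, n = 6). From there the level climbed over HOXB5 (2.31 FPKM) and HOXB6 (4.82 FPKM) to HOXB7. HOXB8, next to HOXB7, averaged only 0.683 FPKM, HOXB9 2.87 ± 0.634 FPKM and HOXB13, best known from the prostate, 1.13 ± 0.570 FPKM.

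In the HOXC cluster the genes at the 3′ end were low, HOXC4 at 0.264 and HOXC5 at 0.559 FPKM. HOXC6, of the lower neck and shoulder level, averaged 2.28 ± 0.633 FPKM (SD, n = 6), HOXC8 1.02 ± 0.227, HOXC9, which marks thoracic motor neurons in the mouse, 3.02 ± 0.400, HOXC10 1.77 ± 0.678 and HOXC11 1.31 ± 0.309 FPKM. HOXC12 had 1, 2 and 0 fragments in the anti-ENG tumours, against 0, 2 and 0 in the IgG tumours, and HOXC13, a gene of hair and nail, stood again at 1.87 ± 0.962 FPKM. HOXC4, HOXC5 and HOXC6 are known to share transcripts, and their values did not resolve into whole fragments. Their levels relative to each other are therefore uncertain.

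The HOXD cluster was expressed in blocks. HOXD1 rested on 4, 0 and 1 fragments in the anti-ENG tumours and 1, 1 and 1 in the IgG tumours. HOXD3 averaged 2.09 ± 0.562 FPKM (SD, n = 6), HOXD4 4.08 ± 0.853, HOXD8 2.93 ± 0.795 and HOXD9 1.65 ± 0.632 FPKM. The limb genes HOXD10 and HOXD11, which follow HOXD9, were near 0. HOXD10 had 1, 0 and 1 fragments in the anti-ENG tumours, against 3, 0 and 0 in the IgG tumours. HOXD11 had 0, 0 and 1 fragments in the anti-ENG tumours, against 1, 0 and 0 in the IgG tumours. After HOXD12 at 0, the last gene of the cluster, HOXD13, whose mutation fuses fingers and toes, averaged 1.11 ± 0.611 FPKM. The 3 genes between HOXD9 and HOXD13 thus held 7 fragments in all 6 tumours together by these smallest numbers, where HOXD9 had 193 and HOXD13 163.

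Of the HOX genes averaging 1 FPKM or more, most held their level over the 6 tumours to within a factor of 2. Their share was below that of all genes. For several the spread was no wider than the counting of fragments would give. The highest tumour was at most 2 times the lowest for 18 of the 26 that averaged 1 FPKM or more (69.2%), against 77.7% of all 12586 genes at that level, and 71.1% of the 7571 genes with a mean up to that of HOXB7. The median ratio of highest to lowest was 1.76 for the HOX genes and 1.53 for all genes. Fragments of those 26 genes could be resolved for 21, between 11 and 388 in a tumour. For these, the coefficient of variation (CV, the SD over the 6 tumours as a percent of the mean) was set beside the CV that counting alone gives, and the median ratio was 1.84. HOXA4 was the steadiest, with a CV of 8.63% against 12.97% from counting. HOXA9, HOXB5 and HOXC9 also lay below their counting CV, with 14.4, 13.7 and 13.3%. A further 8 genes varied by more than 2 times the counting CV: HOXD9, HOXC10, HOXB2, HOXB7, HOXD13, HOXB13, HOXB3 and HOXC13. For HOXB2, HOXB7 and HOXB3 the CVs were only 16.7, 17.0 and 17.6%, and the counting CVs of these well-covered genes were 7.19, 6.76 and 5.52%. These CVs take both groups together, and for HOXB3 the spread lies between the groups, since the SD within them was 0.208 FPKM in the anti-ENG tumours and 0.176 FPKM in the IgG tumours. Counting error does not include other technical error.

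The genes of paralog group 13, the last of each cluster, varied widely, and all 4 were highest in the same tumour. This was noticed in the values, and it was not tested. Of the 26 genes at 1 FPKM or more, HOXC13, HOXB13 and HOXD13 had the largest ratios of highest to lowest tumour, at 5.48, 4.86 and 4.21, ahead of HOXD9 at 3.54. HOXA13, of the hand, foot and genital tract, had 1.48, 0.345 and 0.165 FPKM in anti-ENG 1, 2 and 3, against 0.235, 0.839 and 0.514 FPKM in IgG control 1, 2 and 3. HOXB13 had 2.08, 0.952 and 0.751 FPKM in the anti-ENG tumours, against 0.429, 1.32 and 1.24 FPKM in the IgG tumours. HOXC13 had 3.52, 1.85 and 1.38 FPKM in the anti-ENG tumours, against 0.642, 1.64 and 2.204 FPKM in the IgG tumours. HOXB13 and HOXC13 were lowest in IgG control 1, HOXA13 in anti-ENG 3 and HOXD13 in anti-ENG 2. HOXD13 had 2.26, 0.538 and 0.891 FPKM in the anti-ENG tumours, against 0.712, 1.17 and 1.11 FPKM in the IgG tumours. The fragments behind HOXC13 were 104, 46 and 32 in the anti-ENG tumours, against 13, 39 and 49 in the IgG tumours. The CV was 83.1% for HOXA13, 50.4% for HOXB13, 51.4% for HOXC13 and 54.9% for HOXD13, against counting CVs of 25.1, 16.8, 14.7 and 19.4%. HOXD9 shared the extremes, with 2.67, 1.33 and 1.59 FPKM in the anti-ENG tumours and 0.753, 1.65 and 1.89 FPKM in the IgG tumours. Summed over the 4 genes of group 13, the level was 9.35, 3.68 and 3.19 FPKM in anti-ENG 1, 2 and 3, against 2.02, 4.96 and 5.07 FPKM in IgG control 1, 2 and 3. The groups overlapped, with the highest sum in anti-ENG 1 and the lowest in IgG control 1. The log2 fold changes of HOXB13, HOXC13 and HOXD13 were 0.17, 0.38 and 0.093 with all tumours and -0.30, -0.16 and -0.33 without these 2. Anti-ENG 1 also had the highest relative depth by the worth of a fragment and IgG control 1 the lowest, at 1.46 and 1. The part of depth in this pattern was not tested.

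**Figure D2:**
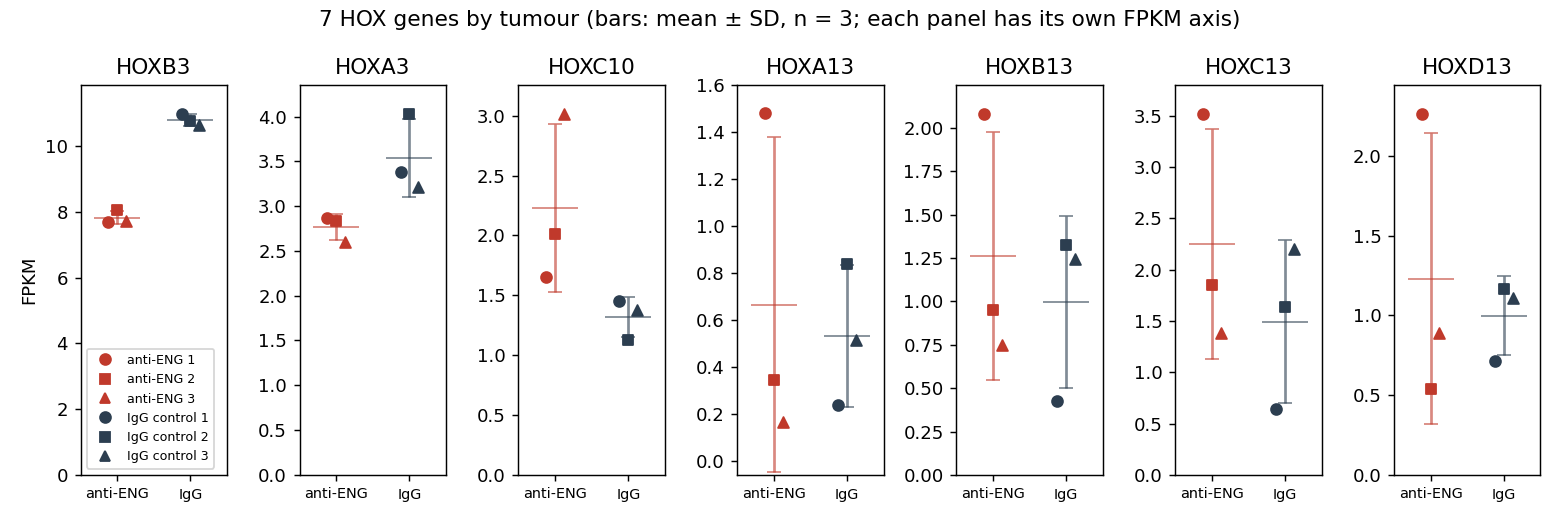
FPKM by tumour (points) of HOXB3, HOXA3 and HOXC10 and of the 4 genes of paralog group 13, with the mean and SD of each group (n = 3, anti-ENG left of IgG control) and a separate axis per gene. HOXB3 has 7.68 to 8.07 FPKM in the anti-ENG tumours and 10.6 to 11.0 FPKM in the IgG tumours, while all 4 group 13 genes are highest in anti-ENG 1.

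Antibody treatment was followed by no called change in any HOX gene. Of the 26 genes tested with limma, 0 were called at an adjusted p under 0.05, the same as among all 12586 genes (0%). At an unadjusted p under 0.05 there was 1 HOX gene, HOXB3, against 9.17% of all genes (3.61% lower and 5.56% higher in the anti-ENG tumours). The groups did not overlap for 3 HOX genes, or 11.5% of 26 against 17.3% of all genes. HOXB3 and HOXA3 were lower in every anti-ENG tumour, as were 6.75% of all genes, and HOXC10 was higher in every one, as were 10.6%. Over both directions, neither share of the HOX genes is above that of all genes. Among the 13 genes too low for the test, HOXC4 alone did not overlap, with 0.195, 0.0553 and 0.249 FPKM in anti-ENG 1, 2 and 3, against 0.284, 0.476 and 0.323 FPKM in IgG control 1, 2 and 3. Estimates were below 0 for 14 and above 0 for 12 HOX genes, with a median log2 fold change of -0.027 beside 0.0065 for all genes. The 95% intervals of single genes reached from -0.73 at the lowest to 1.14 at the highest on the log2 scale, so sizeable differences in either direction remain possible for many of them. Fold changes are on the log2(FPKM + 1) scale, which understates those of low genes.

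HOXB3, which patterns the hindbrain and the pharyngeal arches in the mouse, had 7.68, 8.07 and 7.73 FPKM in anti-ENG 1, 2 and 3, against 11.0, 10.8 and 10.6 FPKM in IgG control 1, 2 and 3. The values rest on 343, 303 and 270 fragments in the anti-ENG tumours and 336, 388 and 357 in the IgG tumours. The groups lay apart and each was tight, at 7.83 ± 0.208 against 10.8 ± 0.176 FPKM (SD, n = 3 each). Both SDs were smaller than counting alone would give, at the counting CV of 5.52%. They may therefore understate the spread between such tumours. The log2 fold change was -0.42 (SE 0.099, 95% interval -0.65 to -0.19), and its limma adjusted p was 0.529. Over the 17 alternatives run, the estimate lay between -0.53 and -0.39 and the limma adjusted p between 0.377 and 0.831.

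HOXA3, a paralog of HOXB3 needed for the thymus and parathyroid in the mouse, had 2.86, 2.83 and 2.60 FPKM in anti-ENG 1, 2 and 3, against 3.38, 4.03 and 3.21 FPKM in IgG control 1, 2 and 3. The lowest IgG tumour was above the highest anti-ENG tumour. The log2 fold change was -0.27 (SE 0.14, limma adjusted p = 0.542). The third paralog, HOXD3, had 1.55, 2.72 and 1.67 FPKM in the anti-ENG tumours, against 2.68, 2.36 and 1.55 FPKM in the IgG tumours, and its groups overlapped.

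HOXC10, a gene of the lumbar level and hindlimb, had 1.65, 2.02 and 3.02 FPKM in anti-ENG 1, 2 and 3, against 1.45, 1.13 and 1.38 FPKM in IgG control 1, 2 and 3. These were 40, 41 and 57 fragments in the anti-ENG tumours, against 24, 22 and 25 in the IgG tumours. The groups did not overlap, and anti-ENG 3 was the highest. The log2 fold change was 0.46 (SE 0.20, limma adjusted p = 0.529). Its neighbour HOXC9 had 3.79, 2.81 and 3.03 FPKM in the anti-ENG tumours, against 2.99, 2.67 and 2.80 FPKM in the IgG tumours, and HOXC11 overlapped as well, with a mean of 1.34 FPKM in the anti-ENG tumours and 1.28 FPKM in the IgG tumours.

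Among the highest genes, HOXB7 had 14.8, 21.1 and 14.7 FPKM in anti-ENG 1, 2 and 3, against 13.2, 16.3 and 16.9 FPKM in IgG control 1, 2 and 3. HOXB2 had 9.96, 10.6 and 14.04 FPKM in the anti-ENG tumours, against 15.5, 12.3 and 12.1 FPKM in the IgG tumours. HOXA10 had 11.4, 10.2 and 9.92 FPKM in the anti-ENG tumours, against 8.73, 11.4 and 9.20 FPKM in the IgG tumours. The groups overlapped for all 3 genes. HOXD4, of the lower hindbrain and neck, had 4.75, 5.35 and 3.76 FPKM in the anti-ENG tumours and 3.83, 3.88 and 2.91 FPKM in the IgG tumours. Its groups overlapped too (log2 fold change 0.31, SE 0.16, limma adjusted p = 0.550). The other tested genes had limma adjusted p-values between 0.659 and 0.985.

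**Figure D3:**
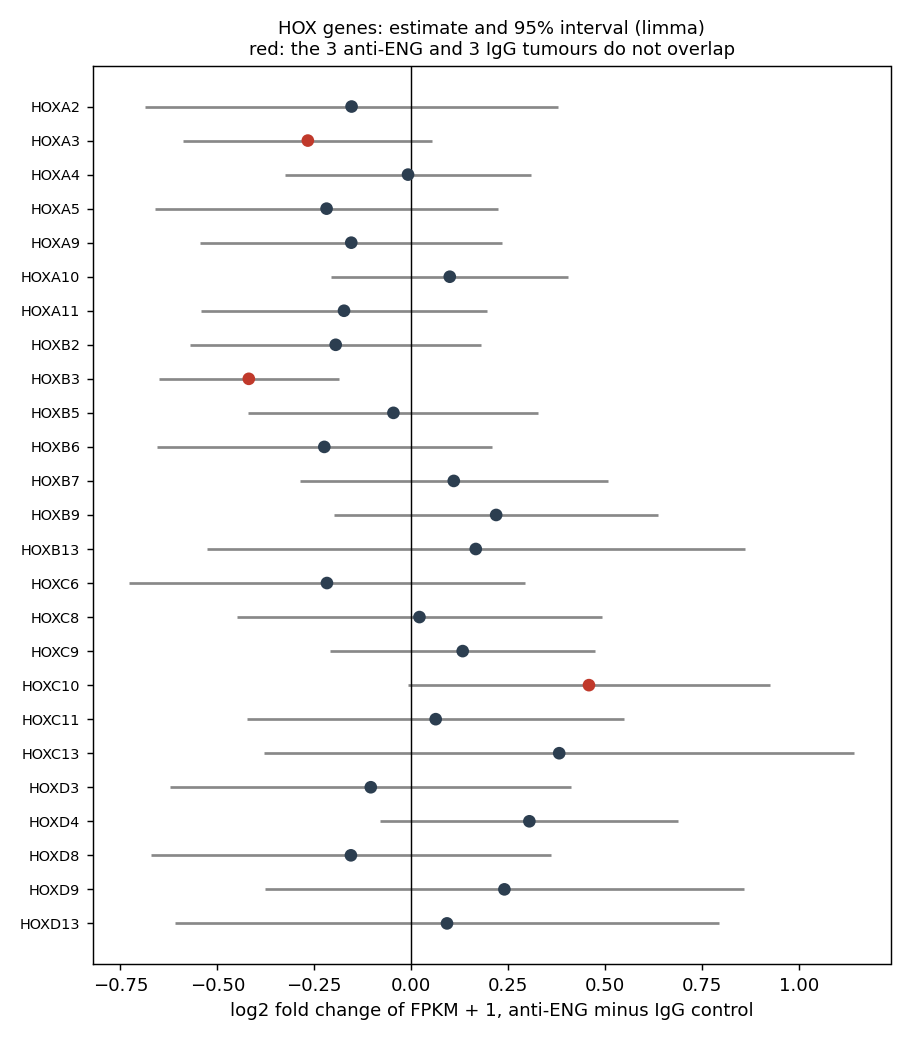
Log2 fold change of FPKM + 1, anti-ENG minus IgG control, of the HOX genes tested and named in the text, with the 95% interval from limma (lines), in cluster order. Points in red mark HOXA3, HOXB3 and HOXC10, whose groups do not overlap, and the interval of HOXB3 alone lies wholly on one side of 0, while its adjusted p is 0.529.

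By position, the estimates of low and high paralog numbers leaned in opposite directions, none of them called. All 6 tested genes of paralog groups 1 to 3 were below 0 (median log2 fold change -0.17), as were 2 of 11 in groups 9 to 13 (median 0.13) and 6 of 9 in groups 4 to 8 (median -0.046), beside 48.8% of all genes. The split was made after the values were seen, and it was given no test. The 8 genes of groups 1 to 3 summed to 27.0, 28.0 and 29.8 FPKM in anti-ENG 1, 2 and 3, against 36.5, 34.7 and 32.2 FPKM in IgG control 1, 2 and 3. HOXB2 and HOXB3 make up most of that sum. Summed over the 6 tested genes, these groups were also apart with upper quartile, quantile or equal-sum scaling. Taken singly, only HOXB3 and HOXA3 of the 6 were apart. HOXB3 is a large part of each of these sums, so they are not separate evidence of a pattern by position. The 16 genes of groups 9 to 13 summed to 37.8, 27.6 and 29.6 FPKM in the anti-ENG tumours, against 23.8, 30.4 and 29.4 FPKM in the IgG tumours, and overlapped. Without anti-ENG 1 and IgG control 1 the lean of groups 9 to 13 turned round, with 8 of 11 genes below 0 (median -0.15), while 4 of 6 in groups 1 to 3 were below 0 (median -0.22). With the sum of FPKM made equal between tumours, 4 of 11 in groups 9 to 13 were below 0.

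**Figure D4:**
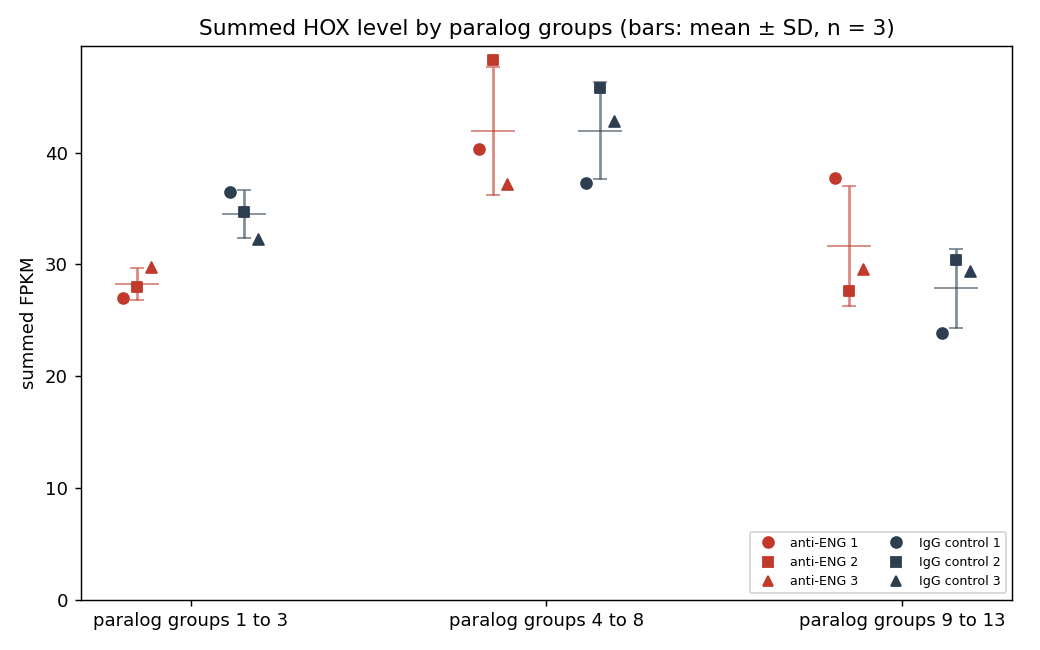
Summed FPKM of the HOX genes of paralog groups 1 to 3, 4 to 8 and 9 to 13, with 1 point per tumour and the mean and SD of each group (n = 3, anti-ENG left of IgG control). In groups 1 to 3 the anti-ENG tumours have 27.0 to 29.8 and the IgG tumours 32.2 to 36.5, while the groups overlap in the other panels.

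Cofactors of the HOX proteins were present throughout, with 8 of 9 tested and 0 called. PBX2 was the most abundant, with 25.1, 25.9 and 21.8 FPKM in anti-ENG 1, 2 and 3, against 29.7, 34.5 and 31.0 FPKM in IgG control 1, 2 and 3 (log2 fold change -0.37, SE 0.12, limma adjusted p = 0.529). Every anti-ENG tumour was below every IgG tumour for PBX2. PBX3 averaged 5.79 FPKM, PKNOX1 5.50 FPKM and MEIS3 3.93 FPKM over the 6 tumours, and PBX4 was near 0, at 0.123 FPKM or less.

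The noncoding transcripts of the clusters were led by HOTAIRM1, of the HOXA cluster, with 15.1, 12.5 and 9.93 FPKM in anti-ENG 1, 2 and 3, against 12.1, 18.1 and 16.6 FPKM in IgG control 1, 2 and 3. Its groups overlapped, and per length of transcript it was several-fold above its coding neighbour HOXA2. HOXA-AS5 had 2.51, 2.61 and 1.54 FPKM in the anti-ENG tumours, against 3.05, 2.98 and 3.97 FPKM in the IgG tumours, without overlap (log2 fold change -0.44, SE 0.19, limma adjusted p = 0.529). HOXB-AS3 averaged 2.53 FPKM. HOTAIR, the transcript of the HOXC cluster reported to act with polycomb proteins on HOXD, had 0.903, 1.16 and 0.800 FPKM in the anti-ENG tumours, against 0.659, 0.991 and 1.48 FPKM in the IgG tumours. Of the 17 such transcripts listed, 3 were tested, 0 were called and 8 were listed at 0 in every tumour, among them the microRNA entries MIR10A, MIR10B and MIR196B, which polyadenylated libraries need not capture. The sources used here do not say whether counting used strand, so reads of an antisense transcript and its coding partner may not be separable.

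Genes at the borders of the clusters differed sharply in level. EVX1, the homeobox gene next to HOXA13, was listed at 0 in every tumour, and EVX2, next to HOXD13, reached 0.0621 FPKM at most. SKAP2, beside the HOXA cluster, averaged 12.1 FPKM, HIBADH 32.5, MTX2 31.0 and SMUG1 25.7 FPKM. Of the 10 flanking genes 6 were tested and 0 called. CALCOCO1, which flanks the HOXC cluster, had 11.7, 12.3 and 12.2 FPKM in anti-ENG 1, 2 and 3, against 15.7, 16.7 and 16.7 FPKM in IgG control 1, 2 and 3, without overlap (log2 fold change -0.41, SE 0.098, limma adjusted p = 0.529).

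Among known regulators of HOX genes, the caudal genes CDX2 and CDX4, which switch on trunk HOX genes in the embryo, were listed at 0 in every tumour, and CDX1 was at 0.467 FPKM or less. The retinoic acid receptors were expressed, RARG at 8.82, RARA at 5.53 and RARB at 4.26 FPKM on average, beside ALDH1A3, which makes retinoic acid, at 9.34 FPKM. CYP26A1, which degrades it, was listed at 0. CYP26B1 of the same family, too low for the test, had 0.179 to 0.252 FPKM in the anti-ENG tumours, against 0.428 to 0.496 FPKM in the IgG tumours. MEN1, WDR5 and the methyltransferase gene listed under its older symbol MLL, all of the machinery that keeps HOX genes active, averaged 22.8, 22.6 and 6.92 FPKM, and RXRB, a partner of the retinoic acid receptors, 15.7 FPKM. In this list 13 of 22 were tested and 0 called. All 17 polycomb genes, which keep HOX genes silent, were tested, again with 0 called. EZH2, SUZ12 and EED averaged 22.5, 16.2 and 7.85 FPKM, and RBBP7, PHC2, RING1 and BMI1 were the highest of the list at 118, 80.9, 31.9 and 24.7 FPKM. The groups were apart for 3 of the 17 (17.6%, beside 17.3% of all genes), RBBP7 and RNF2 higher and JARID2 lower in the anti-ENG tumours. JARID2, a partner of EZH2 and SUZ12, had 5.59, 5.92 and 6.21 FPKM in the anti-ENG tumours, against 7.21, 7.61 and 7.30 FPKM in the IgG tumours (log2 fold change -0.28, SE 0.11, limma adjusted p = 0.529).

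Homeobox genes of the head and anterior brain, regions that use no HOX genes, were mostly near 0, while several limb and trunk factors were well expressed. Of 20 such head and brain genes 2 were tested, among them DLX1 at 4.63 FPKM on average, and 18 were below 1 FPKM in every tumour, including OTX2, listed at 0. Of 20 factors of limb and trunk mesenchyme 11 were tested. PRRX1, a factor of limb bud mesenchyme, averaged 68.3 FPKM, TBX3 28.9, IRX3 28.9 and SHOX2 10.8 FPKM. The factors that distinguish forelimb and hindlimb were low: TBX5 was listed at 0, TBX4 reached 0.0328 FPKM at most, and PITX1 of the hindlimb averaged 2.36 ± 0.438 FPKM in the anti-ENG tumours, against 1.33 ± 0.570 FPKM in the IgG tumours (SD, n = 3 each). The groups of PITX1 were apart by a narrow margin (log2 fold change 0.55, SE 0.23, limma adjusted p = 0.529). In these 2 lists 0 genes were called.

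Levels of genes used as fibroblast markers leaned lower in the anti-ENG tumours, with 0 of 8 called. Levels of markers of other cell types are given beside them. The 8 fibroblast markers summed to 336 to 838 FPKM in the anti-ENG tumours and 734 to 1418 FPKM in the IgG tumours. All 8 estimates were below 0 (median log2 fold change -0.89), beside 48.8% of all genes. The 6 endothelial markers summed to 2.64 to 4.37 FPKM in the anti-ENG tumours and 2.47 to 4.84 FPKM in the IgG tumours, with KDR at 0.0535 FPKM or less. The 7 immune markers summed to 75.1 to 102 FPKM in the anti-ENG tumours and 63.3 to 121 FPKM in the IgG tumours, almost all of it CD68, while the T cell gene CD3E was listed at 0. The 5 melanocyte markers in the table summed to 3.25 to 4.61 FPKM in the anti-ENG tumours and 2.15 to 3.29 FPKM in the IgG tumours, and MITF was the largest. The 5 epithelial markers summed to 47.6 to 67.1 FPKM in the anti-ENG tumours and 52.5 to 65.2 FPKM in the IgG tumours, mostly KRT18. Reads were assigned to the human genome, so these marker levels are not a measure of host cell content. They may come from the tumour cells or from mouse reads that align there. Which source they have, and any part of host cells in the HOX values, was not tested.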

How the data were processed

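RNA of 6 tumours, 3 per group by sample title, was read from 1 deposited table of FPKM values made by the authors, with a column for each tumour. The submitters' processing notes name Cufflinks (2.2.1), Cuffnorm, TopHat2 (2.0.10), FastQC (0.10.1), SAMtools (0.1.1.9), Bowtie (1.0.0) and the build GRCh37 (hg19). The sources used here do not give how Cuffnorm scaled the values, which annotation was used or what became of mouse reads. The labels' protocols name TruSeq and NEBNext library kits and HiSeq and NextSeq instruments, and do not tie them to samples. Any difference between groups in these cannot be told apart from treatment.

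The test was limma (3.58.1, R 4.3.3) on log2 of FPKM plus 1, with a variance trend, for the 12586 genes averaging 1 FPKM or more, without covariates. P-values were two-sided, and Benjamini-Hochberg adjustment ran over all these genes (threshold 0.05). IgG control 2 and 3 carry the same code number, as do anti-ENG 1 and 2, and no label says that such tumours came from different animals. P-values may therefore measure only the spread between these samples. Relative depth was taken from genes of up to 0.05 FPKM, and fragments as the smallest whole numbers fitting all 6 values within 0.02. HOX members, companion lists and tests were chosen with earlier results of these data known. The naming rule took every HOX gene, up to 4 of the highest members of each companion list, any member with an unadjusted p under 0.05, and ENG. Other genes were named after their values were seen. A few genes that the rule named are not reported here, and they stay in counts, sums and medians. The fit was also run on simulated data with known changes, and its recovery of them is not reported here. Alternatives covered the pseudocount, filter, scaling, variance model, blocks and left-out tumours.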

Additional observations from a re-analysis of the deposited data

How the results depend on the processing

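Under every alternative run, 0 genes and 0 HOX genes were called by limma. At an unadjusted p under 0.05 there were 1 to 3 HOX genes. The median HOX log2 fold change, -0.027, has no stable sign. It was 0.052 with quantile normalization, -0.12 with equal sums of FPKM and -0.097 to 0.029 with 1 tumour left out, moves within 1 SD of the tumours' HOX medians (0.091). With both IgG control 1 and anti-ENG 1 left out it was -0.14, an alternative chosen after seeing the data. The replicate block left that median at -0.027. The deviations of same-numbered tumours from their group means had correlations of -0.33, 0.19 and 0.037. With 3 tumours per group these deviations depend on each other, so they cannot decide whether the numbers pair tumours. At a minimum mean of 5 FPKM, 4 HOX genes remained instead of 26. Of the 26 tested genes 13 kept their sign throughout, HOXB3, HOXA3 and HOXC10 among them. With quantile normalization the sign turned for HOXA4 (0.069) and HOXB5 (0.034). With equal sums of FPKM it turned for HOXA10 (-0.011), HOXB7 (-0.0043), HOXC11 (-0.0091) and HOXC8 (-0.044), where the median of all genes moved to -0.10. With tumours of the same code number averaged it turned for HOXB5 (0.0038). Without both IgG control 1 and anti-ENG 1 it turned for HOXA10 (-0.025), HOXB13 (-0.30), HOXB2 (0.0033), HOXC11 (-0.14), HOXC13 (-0.16), HOXC8 (-0.16), HOXD13 (-0.33), HOXD3 (0.11) and HOXD9 (-0.17). With 1 tumour left out in turn, values ran from -0.080 to 0.038 for HOXA4, -0.079 to 0.33 for HOXB13, -0.14 to 0.065 for HOXB5, -0.052 to 0.19 for HOXB7, -0.11 to 0.20 for HOXC11, -0.11 to 0.11 for HOXC8, -0.22 to 0.32 for HOXD13, -0.28 to 0.0058 for HOXD3 and -0.30 to 0.027 for HOXD8. The cause was not tested. The tested HOX genes that resolved held 11 to 388 fragments in a tumour, which limits the differences that could be detected.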
